A study of Mus musculus with 9 samples.

Results

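The 10 radial spoke genes described here are Rsph1, Rsph3a, Rsph4a, Rsph6a, Rsph9, Rsph10b, Nme5, Dydc1, Lrrc23 and Ropn1l. They were chosen by symbol, as genes whose products belong to the radial spokes of motile cilia and flagella. The choice was made with earlier results of these data known. All 10 were found among the 23074 genes of the count table. RNA was sequenced from decapsulated testes of 5 wild type (WT) and 4 Rfx2-/- mice at postnatal days 29 to 30 (P30), with 1 library per mouse. Mice of both genotypes were of a mixed C57BL/6, 129/Sv and FVB/N background. The paper describes a mixed-background knockout line that kept the neomycin cassette, and another line without it that was backcrossed to C57BL/6. Its methods do not name the line used for RNA. In Rfx2-/- mice an exon that encodes much of the DNA-binding domain of RFX2, a transcription factor of the RFX family, had been removed with a ubiquitously expressed Cre, so every testis cell type carried the deletion. The targeted allele was made in 129/Sv embryonic stem cells, and Rsph1, Rsph3a and Rsph9 lie on chromosome 17, as does Rfx2. The strain of origin of these loci was not examined.

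Radial spokes are T-shaped complexes that reach from each outer microtubule doublet of the axoneme toward the central pair, and they relay the signals that control dynein activity and the bending of the flagellum. Each spoke has a stalk anchored on the doublet, a neck and a head that faces the central pair. The third spoke of each repeat is built largely from other proteins than the first and the second. In the testis the axoneme of the sperm tail is assembled in spermatids, after meiosis.

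Loss of RFX2 was accompanied by very uneven changes among these genes. Lrrc23, which encodes a protein of the third spoke, fell 155-fold, Rsph9, a head gene, fell 51.6-fold, and Rsph10b, another head gene, fell 3.11-fold. The other 6 genes tested did not pass the test. They lay between a log2 fold change of -0.54 for Rsph3a and 0.19 for Dydc1. A call required an adjusted p at or under 0.01 and more than a 2-fold change in the quasi-likelihood F test of edgeR, fitted to all 15613 genes that passed the filter on low counts. Of the 9 members that passed this filter, 3 were called lower, against 3.68% of all genes tested. None of the 9 was called higher by edgeR or by DESeq2, against 0.826% of all genes in edgeR. At an unadjusted p under 0.05 in edgeR, 6 of 9 were lower and 0 of 9 higher, against 13.7% and 13.9% of all genes. The median log2 fold change was -0.43 over the 9 members and 0.03 over all genes. All Rfx2-/- libraries lay below all WT libraries for 4 of the 9 members, against 9.71% of all genes, and above them for 0 of 9, against 6.14%. The remaining member, Rsph4a, had too few counts to be tested.

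Libraries held 13574764 to 15193330 counts, except Rfx2-/- replicate 1 with 28800855. Levels are given as CPM, the counts of a gene scaled by library total and TMM factor so that libraries of different depth can be compared. Rfx2 itself was at 559, 551, 471, 540.3 and 623 CPM in WT replicates 1 to 5 and at 199, 61.4, 151 and 173 CPM in Rfx2-/- replicates 1 to 4. The genotypes did not overlap, with means of 549 ± 54.5 (SD, n = 5) and 146 ± 59.7 (n = 4) and a log2 fold change of -1.91 ± 0.28 (SE, adjusted p = 0.000781 in edgeR). These counts cover all exons of the gene and so do not measure the deleted exon. The biological coefficient of variation was 0.139 among WT and 0.31 among Rfx2-/- libraries. It was 0.188 in Rfx2-/- without replicate 2, a library in which genes with under 2 kb of exons had a median log2 deviation of 0.57 and genes over 8 kb one of -0.88. That library lay above the 3 other Rfx2-/- libraries for Rsph1, Nme5 and Ropn1l, below them for Rsph4a and Rsph6a, and within their range for the other 5 members. Leaving it out changed no call of a member.

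**Figure D1:**
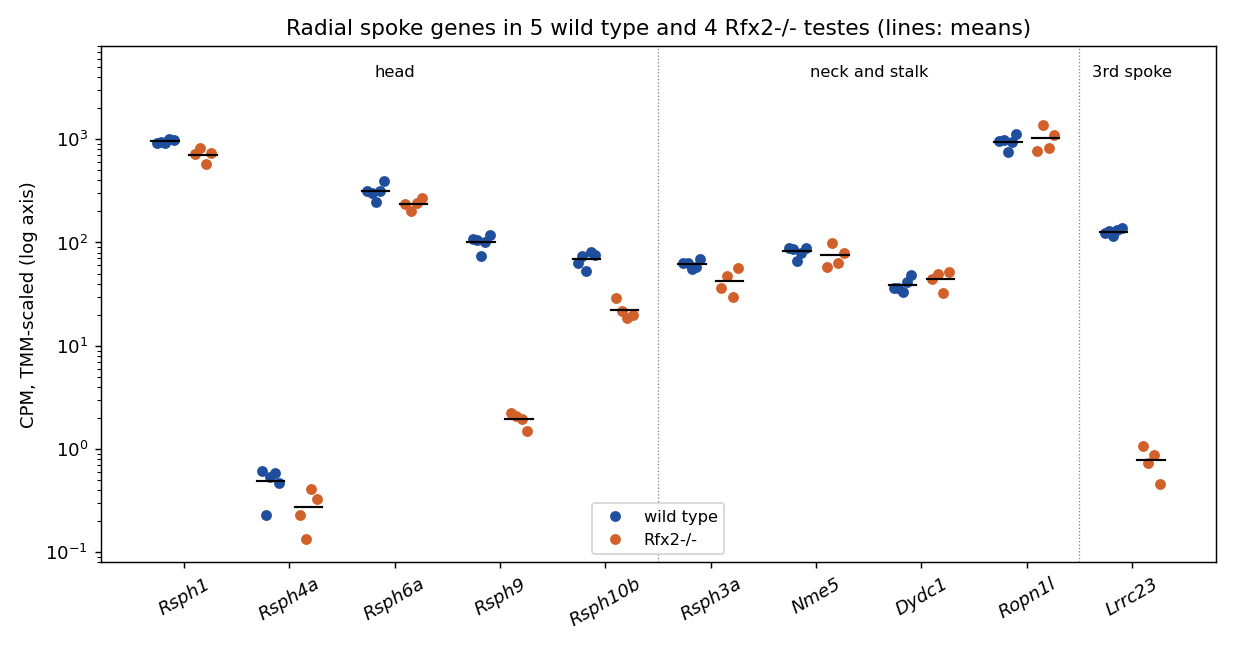
CPM (log axis) of each radial spoke gene in every library, with WT in blue, Rfx2-/- in orange and a line at each mean. Rsph9 and Lrrc23 are at 2.22 CPM or less in all 4 Rfx2-/- libraries and at 74.7 CPM or more in all 5 WT libraries, and Rsph4a is at 0.61 CPM or less in all 9.

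Among the head genes, Rsph9 (ENSMUSG00000023966) changed most. Its product is a head component whose mutation in humans causes primary ciliary dyskinesia. The gene lies on the minus strand of chromosome 17 (46122035 to 46144216, GRCm38). In WT replicates 1 to 5 it was at 108, 107, 74.7, 100.2 and 119 CPM, and in Rfx2-/- replicates 1 to 4 at 2.22, 2.07, 1.98 and 1.503 CPM. The genotypes were far apart, and the highest knockout library held less than the lowest WT library by a wide margin. The counts behind the knockout values were 67, 31, 29 and 23 reads, all above the floor of 3 counts, so residual reads were present in each of these testes. The log2 fold change was -5.69 ± 0.21 (SE, adjusted p = 6.21e-09 in edgeR), with the mean in Rfx2-/- at 1.91% of WT, and ranked 30 by size among the 575 genes called lower. Mrps18a, a gene of the mitochondrial ribosome whose span overlaps the end of Rsph9 on the opposite strand without sharing exon bases, was not called, with a log2 fold change of 0.33 ± 0.17 (adjusted p = 0.229 in edgeR).

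Rsph10b, a head gene whose protein carries MORN repeats, was reduced to a lesser degree. It lies on the plus strand of chromosome 5 (143933035 to 143985719). WT replicates 1 to 5 were at 62.9, 74.1, 52.6, 81.3 and 76.4 CPM, and Rfx2-/- replicates 1 to 4 at 29.0, 21.6, 18.7 and 19.9 CPM. The genotypes did not overlap, and 32.1% of the WT mean remained. The log2 fold change was -1.63 ± 0.18 (SE, adjusted p = 7.07e-05 in edgeR), and the gene ranked 361 among those called lower. When the null hypothesis was set at the 2-fold limit itself, the adjusted p was 0.0163 and the call was lost. Rsph10b shares 325 exon bases, 10.8% of its exons, with the annotated gene Gm42421, and 58 bases with Pms2, a mismatch repair gene that precedes it on the same strand. Reads in shared exons were left out by the authors' counting where both genes were in the annotation used. Pms2 has a row in the count table and Gm42421 has none. As far as the table shows, the rule thus covered the bases shared with Pms2 and not those shared with Gm42421. Pms2 was not called, at 11.9 ± 1.49 CPM in WT (SD, n = 5) and 12.4 ± 2.21 in Rfx2-/- (n = 4).

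Rsph1, another head gene with MORN repeats, was the most abundant head gene. WT replicates 1 to 5 were at 926, 949, 924, 1009 and 975 CPM, and Rfx2-/- replicates 1 to 4 at 723, 822, 569 and 729 CPM. Every knockout library was below every WT library, but the difference was small. The Rfx2-/- mean was 74.3% of WT, with a log2 fold change of -0.43 ± 0.14 (SE, adjusted p = 0.0789 in edgeR), and the gene was not called. Without Rfx2-/- replicate 2 the adjusted p was 0.00995 in the same test, and the change of -0.51 stayed under 2-fold. The WT spread of Rsph1 was the smallest of the 10 members, with a coefficient of variation of 3.71%.

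Rsph6a and Rsph4a are paralogs, the first known as the form of sperm and the second as that of motile cilia of epithelia. Rsph6a was at 317, 301, 247, 317 and 394 CPM in WT replicates 1 to 5, and at 235, 201, 242 and 273 CPM in Rfx2-/- replicates 1 to 4. The ranges overlapped, and the log2 fold change of -0.41 ± 0.16 (SE, adjusted p = 0.127 in edgeR) did not pass the test. Rsph4a was close to the limit of detection in both genotypes, with 8, 3, 8, 8 and 6 reads in WT replicates 1 to 5 and 7, 2, 6 and 5 reads in Rfx2-/- replicates 1 to 4. These reads correspond to 0.49 ± 0.15 CPM in WT (SD, n = 5) and 0.28 ± 0.12 in Rfx2-/- (n = 4), beside floors of 0.0995 to 0.234 CPM in single libraries. The ranges overlapped, and a difference between genotypes was not detectable at this depth. Of 5 genes used to mark multiciliated epithelium, Mcidas, Gmnc and Sec14l3 were low in WT, at means of 0.088, 0.387 and 1.54 CPM, while Deup1 and Foxj1 were well detected, at 261 and 114 CPM.

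Of the head genes, 2 of 4 tested were called lower, against 3.68% of all genes. Per kilobase of exon, Rsph9 stood at 0.129 ± 0.0199 of Rsph1 in WT (SD, n = 5) and at 0.0034 ± 0.00075 in Rfx2-/- (n = 4), with no overlap between libraries. The ratio of Rsph6a to Rsph1 was 0.192 ± 0.0293 in WT and 0.199 ± 0.0448 in Rfx2-/-, with overlapping ranges. Rsph4a was at 0.001 ± 0.00037 of Rsph6a in WT.

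Of the 4 neck and stalk genes, 0 were called, where 3.68% of all genes were called lower and 0.826% higher, so that a count of 0 among 4 says little about the group. Rsph3a, one of the mouse copies of the gene for a stalk protein that anchors protein kinase A, was at 63.8, 63.3, 54.9, 57.5 and 68.7 CPM in WT replicates 1 to 5. It was at 36.6, 46.9, 30.0 and 56.0 CPM in Rfx2-/- replicates 1 to 4. Only replicate 4 of the knockout reached into the WT range. Its log2 fold change was -0.54 ± 0.18 (SE, adjusted p = 0.0747 in edgeR), and the Rfx2-/- mean was 68.7% of WT.

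The second copy, Rsph3b, shares long stretches with Rsph3a: 54.4% of all runs of 50 bases in the transcripts of Rsph3a occur in Rsph3b as well. The authors discarded reads that mapped to several places, so both genes lost reads and their levels are uncertain. Rsph3b was at 5.20, 6.27, 4.85, 15.7 and 5.45 CPM in WT replicates 1 to 5 and at 12.3, 15.1, 11.6 and 5.03 CPM in Rfx2-/- replicates 1 to 4. Libraries were thus either low or high for Rsph3b, and each genotype had 1 library with the level common in the other genotype. Those libraries were WT replicate 4, high, and Rfx2-/- replicate 4, low. The ratio of Rsph3a to Rsph3b per kilobase was 3.69 in WT replicate 4 and 10.2 to 12.7 in the other WT libraries, and 11.2 in Rfx2-/- replicate 4 and 2.59 to 3.13 in the other knockout libraries. Rsph3b was not called, with a log2 fold change of 0.56 ± 0.38 (SE, adjusted p = 0.361 in edgeR). A further 13.4% of the exon bases of Rsph3a lie opposite the antisense gene E430024P14Rik, and the sources used here do not state whether strand was used in counting.

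**Figure D2:**
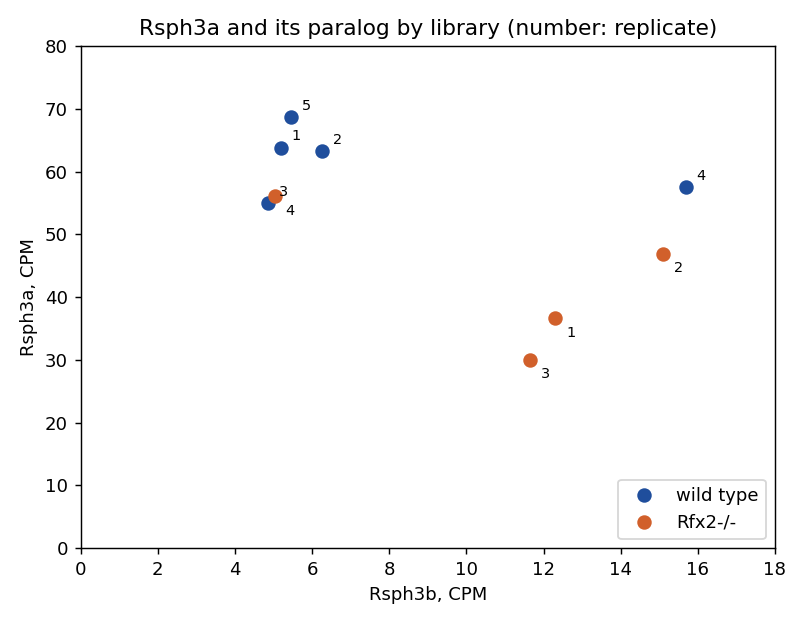
Rsph3a against its paralog Rsph3b, both in CPM, with 1 point per library and the replicate number beside it. WT replicate 4 lies with Rfx2-/- replicates 1 to 3 at 11.6 CPM of Rsph3b or more, and Rfx2-/- replicate 4 lies with the other WT libraries at 6.27 CPM or less.

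Ropn1l, whose product is a stalk protein with a dimerization domain of the protein kinase A type, was among the most abundant members. WT replicates 1 to 5 were at 951, 972, 751, 943 and 1123 CPM, and Rfx2-/- replicates 1 to 4 at 777, 1368, 815 and 1110 CPM. Knockout libraries lay on either side of the WT mean. The log2 fold change of 0.10 ± 0.19 (SE, adjusted p = 0.761 in edgeR) turned to -0.07 without Rfx2-/- replicate 2. Its close relative Ropn1 was likewise not called, at 272 ± 64.8 CPM in WT (SD, n = 5) and 289 ± 83.5 in Rfx2-/- (n = 4).

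Nme5, a neck protein of the nucleoside diphosphate kinase family, was at 88.7, 86.9, 66.2, 79.95 and 88.9 CPM in WT replicates 1 to 5. In Rfx2-/- replicates 1 to 4 it was at 58.5, 99.5, 63.8 and 79.2 CPM. The highest of all libraries and the lowest were both knockouts. Its value in the fit was a log2 fold change of -0.13 ± 0.17 (SE, adjusted p = 0.661 in edgeR), and it was 0.01 without Rfx2-/- replicate 1 and -0.29 without replicate 2.

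Dydc1, which encodes a protein with a DPY30 motif, was at 36.1, 36.2, 33.1, 41.4 and 48.5 CPM in WT replicates 1 to 5 and at 44.5, 49.5, 32.3 and 52.4 CPM in Rfx2-/- replicates 1 to 4. The ranges overlapped almost completely. Its log2 fold change was 0.19 ± 0.17 (SE, adjusted p = 0.473 in edgeR), the highest of the members tested.

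Lrrc23, a leucine-rich repeat protein of the head of the third spoke, showed the largest change of all members. The gene lies on the minus strand of chromosome 6 (124769863 to 124779727). WT replicates 1 to 5 were at 124, 130, 115, 131 and 139 CPM, and Rfx2-/- replicates 1 to 4 at 1.06, 0.73, 0.89 and 0.46 CPM. The WT libraries were close to each other, and the knockout libraries were all low, with 32, 11, 13 and 7 reads, each above the floor of 3 counts. The log2 fold change was -7.28 ± 0.23 (SE, adjusted p = 3.41e-09 in edgeR), with 0.615% of the WT mean left, and ranked 14 among the 575 genes called lower. In whole testis, fewer cells of a type and less RNA per cell cannot be told apart, for this gene as for the others.

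Compared per kilobase of exon, the members covered a wide range of levels in WT. Ropn1l was highest at 991 ± 138 CPM per kb (SD, n = 5), followed by Rsph1 at 697 ± 25.9, Rsph6a at 134 ± 22.4, Nme5 at 97.4 ± 11.4 and Rsph9 at 89.7 ± 14.5. Below them were Lrrc23 at 79.5 ± 5.62, Dydc1 at 39.3 ± 6.07, Rsph3a at 27.7 ± 2.45, Rsph10b at 23.1 ± 3.85 and Rsph4a at 0.133 ± 0.0418. The ranges over WT libraries overlapped for 4 pairs of neighbours in this order. Within single libraries, Rsph6a exceeded Nme5, and Nme5 exceeded Rsph9, in 5 of 5, while Rsph9 exceeded Lrrc23, and Rsph3a exceeded Rsph10b, in 4 of 5. All other neighbours were in this order in 5 of 5 libraries. Reads of Rsph3a that mapped to several places were discarded, so its level per kilobase and its place in the order are uncertain. In Rfx2-/- the means of Ropn1l, Rsph1, Rsph6a and Nme5 kept this order. Rsph6a exceeded Nme5 in 3 of 4 Rfx2-/- libraries, and their ranges overlapped. Rsph9 moved from place 5 to 8 and Lrrc23 from place 6 to 9. Rsph9 was then at 1.72 ± 0.274 CPM per kb (n = 4) and Lrrc23 at 0.489 ± 0.159, with Rsph4a alone below them at 0.0754 ± 0.0326.

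**Figure D3:**
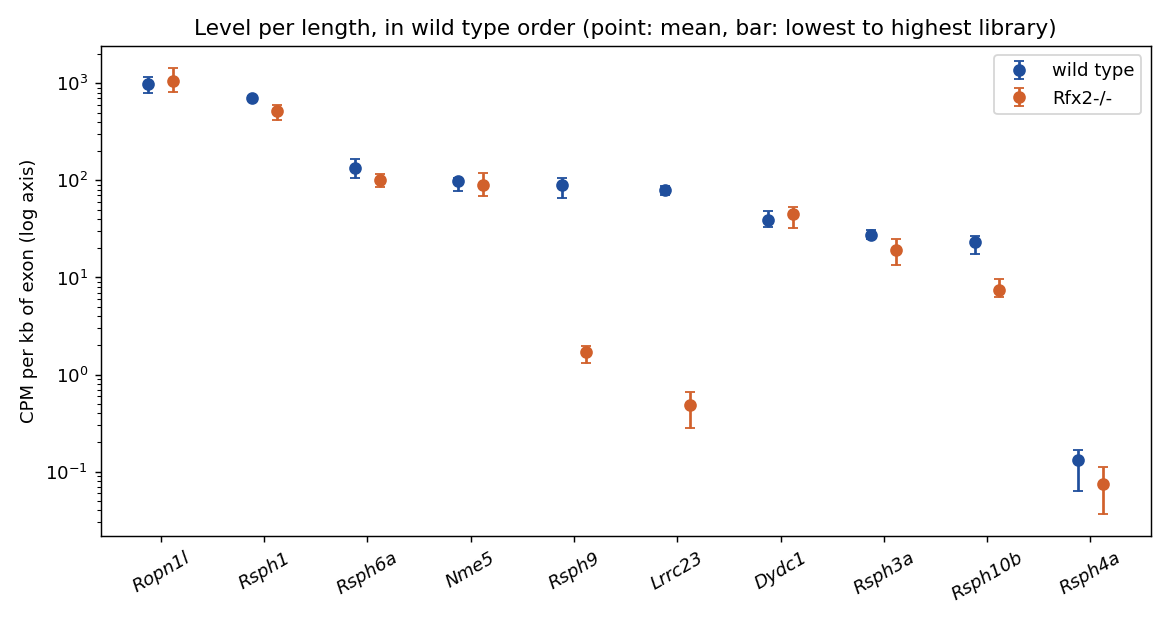
Level of each member in CPM per kb of exon (log axis), ordered by the WT mean, with points at the means of WT (blue, n = 5) and Rfx2-/- (orange, n = 4) and bars from the lowest to the highest library. The genotypes are separated for Rsph1, Rsph9, Lrrc23 and Rsph10b and overlap for the other 6 members.

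RFX proteins bind the X-box, in which the half-sites GTTNCC and GGNAAC face each other at a short spacing. Promoter windows from RefSeq (GRCm38.p6, 250 bases before to 50 after a start) were at hand for 6 members, Rsph3a, Rsph6a, Rsph9, Dydc1, Ropn1l and Lrrc23. All 6 windows held at least 1 half-site on either strand, as did 45.3% of the 32851 promoter windows. A pair of half-sites 2 bases apart with at most 2 of the 10 fixed letters mismatched was found in 3 of the 6, those of Rsph9, Ropn1l and Lrrc23, and in 13.9% of all windows. Dydc1 held an exact pair at a spacing of 1 base, a spacing added to the search after the windows had been seen, and 0.271% of all windows held such a pair. Those 4 windows are shown from 120 bases before to 30 bases after the start, since they set 2 of the most reduced members beside 2 that were not called. Each reads along the strand of its gene, and capitals mark the pair of half-sites, at a spacing of 2 bases or, in Dydc1, of 1 base. The marked letters of Ropn1l also hold a pair at a spacing of 1 base with 1 mismatch, closer than the marked pair. With at most 1 mismatch, 5.44% of all windows held a pair at any spacing from 0 to 3 bases.
Rsph9, chr17:46144171-46144320, minus strand: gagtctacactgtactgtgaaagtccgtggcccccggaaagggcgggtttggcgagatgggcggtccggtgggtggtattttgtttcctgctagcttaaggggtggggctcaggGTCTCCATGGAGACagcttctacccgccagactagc
Lrrc23, chr6:124779698-124779847, minus strand: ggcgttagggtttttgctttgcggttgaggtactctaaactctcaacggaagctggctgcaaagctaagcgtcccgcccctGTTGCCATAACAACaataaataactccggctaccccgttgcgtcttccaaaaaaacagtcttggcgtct
Ropn1l, chr15:31453660-31453809, minus strand: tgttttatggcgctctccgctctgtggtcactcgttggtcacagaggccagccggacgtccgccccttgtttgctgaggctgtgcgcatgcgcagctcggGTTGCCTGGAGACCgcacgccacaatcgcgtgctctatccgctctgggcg
Dydc1, chr14:41072791-41072940, plus strand: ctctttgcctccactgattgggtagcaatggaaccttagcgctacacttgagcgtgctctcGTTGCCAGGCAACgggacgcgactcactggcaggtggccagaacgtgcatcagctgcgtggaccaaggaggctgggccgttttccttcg
The pair lay across the start in Rsph9, 32 bases before it in Lrrc23, 13 bases before it in Ropn1l and 52 bases before it in Dydc1. A pair of this kind was thus present in promoters of genes that were called lower and of genes that were not, and Rsph3a and Rsph6a held no pair at the spacing of 2 bases with up to 2 mismatches. At any spacing from 0 to 3 bases, again with up to 2 mismatches, 5 of the 6 windows and 34.4% of all windows held a pair. These matches are descriptions of letters and not of binding.

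The study marked genes with an RFX2 peak at the promoter in chromatin immunoprecipitation of germ cells at P21. Of the 23074 genes of the count table, 977 are on that list. Of the 10 members, 7 are on it: Rsph1, Rsph4a, Rsph10b, Nme5, Dydc1, Ropn1l and Lrrc23. Of the 6 of them that were tested, 2 were called lower, Rsph10b and Lrrc23. Rsph9, with the second largest change, is not on the list. Of all genes tested, 11.1% of the 953 on the list and 3.20% of the 14660 others were called lower.

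Within WT, the same library was lowest for most members. Replicate 3 was the lowest WT library for 9 of the 10 members, the exception being Rsph4a, and replicate 5 was the highest for 7. Over all genes tested, replicate 3 was lowest for 31.9% and replicate 5 highest for 27.3%. Replicate 3 also had the lowest summed level of 8 genes used as markers of elongating spermatids (such as Prm1, Tnp1 and Akap4), at 7731 CPM. Replicate 5 had the highest, at 16700. Between genotypes, the 8 markers all had log2 fold changes below 0, with a median of -0.80, and none of them was called. The changes ran from -1.21 for Prm1 to -0.45 for Smcp. Adjusted p in edgeR ran from 0.00988 for Akap4, which changed less than 2-fold, to 0.158 for Smcp. The sum of the 8 markers ranged from 6002 to 9309 CPM in Rfx2-/-. The paper reports that Rfx2-/- spermatids arrest before they elongate. It also places Tnp1 and Tnp2 mRNA among transcripts already present at the end of the round stage. The sum of these 8 markers is therefore not a measure of the number of elongating spermatids. The paper also states that Tnp1 and Tnp2 mRNA are not reduced in the knockout. Here the log2 fold change was -1.12 ± 0.32 for Tnp1 (SE, adjusted p = 0.0416 in edgeR). For Tnp2 it was -0.77 ± 0.27 (adjusted p = 0.0927 in edgeR), and neither gene was called. The 4 markers of meiotic prophase had a median log2 fold change of 0.69, none of them called. Their sum was 571 to 695 CPM in WT and 702 to 1817 in Rfx2-/-. The value of 1817 was that of Rfx2-/- replicate 2 alone, and replicates 1, 3 and 4 were at 702, 805 and 894 CPM. The 4 markers of round spermatids summed to 479 to 713 CPM in WT and 600 to 898 in Rfx2-/-. The part of these shifts in the changes of the spoke genes was not tested. Lists for spermatogonia (4 markers), Sertoli (4), Leydig (4) and peritubular cells (2) and macrophages (3) held no called gene, and their summed ranges overlapped between genotypes. Of the 5 genes used to mark multiciliated epithelium, 3 were tested. Sec14l3 was called lower, and Deup1 and Foxj1 were not called, with log2 fold changes of -0.84 ± 0.16 (SE, adjusted p = 0.00439 in edgeR) and -0.47 ± 0.19 (adjusted p = 0.139 in edgeR). The sum of the 5, nearly all of it from Deup1 and Foxj1, was 278 to 422 CPM in WT and 205 to 249.2 in Rfx2-/-. Mcidas and Gmnc were too low to be tested, so this sum is not a measure of the amount of such an epithelium.

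A further list of 13 genes held other proteins assigned to the spokes or their bases and close paralogs of members. All 13 were tested, 4 were called lower and 0 higher, against 3.68% and 0.826% of all genes, and 8 of 13 were below 0 with a median log2 fold change of -0.41. At an unadjusted p under 0.05 in edgeR, 6 of the 13 were lower, against 13.7% of all genes, and 2 were higher, Cfap251 and Dpy30, against 13.9%. The 4 genes called lower were Iqub, Cfap91, Rsph14 and Dnajb13. All Rfx2-/- libraries lay below all WT libraries for 6 of the 13, these 4 and Ppil6 and Cfap61, against 9.71% of all genes. They lay above all WT libraries for 0 of the 13, against 6.14%. Iqub, which encodes a base protein of the first spoke, dropped from 192 ± 31.2 CPM in WT (SD, n = 5) to 6.62 ± 2.47 in Rfx2-/- (n = 4), a log2 fold change of -4.86 ± 0.26 (SE, adjusted p = 1.29e-07 in edgeR). Cfap91, a protein of the calmodulin-associated spoke complex, fell from 89.6 ± 13.6 to 10.98 ± 2.08 CPM, with a log2 fold change of -3.02 ± 0.18 (adjusted p = 2.91e-07 in edgeR). For Rsph14 the levels were 22.5 ± 5.65 and 3.23 ± 0.72 CPM, and the log2 fold change was -2.79 ± 0.24 (adjusted p = 9.74e-06 in edgeR). Dnajb13, a co-chaperone of the spoke neck, went from 245 ± 47.6 to 96.1 ± 23.9 CPM, with a log2 fold change of -1.35 ± 0.20 (adjusted p = 0.000904 in edgeR). Of the 13, 7 are on the list of promoter peaks, where 977 of the 23074 genes of the count table are. These 7 are the 4 called genes and Ppil6, Cfap61 and Cfap251, and the last 3 were not called. Their log2 fold changes were -0.85 ± 0.17, -0.81 ± 0.24 and 0.90 ± 0.22 (SE), with adjusted p of 0.00735, 0.0481 and 0.0201 in edgeR. Ppil6 thus passed the limit on adjusted p and not that on fold change. Dnajb13 shares 305 exon bases with Ucp2 on the opposite strand, and Cfap91 shares 305 with the antisense gene Maats1os.

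**Figure D4:**
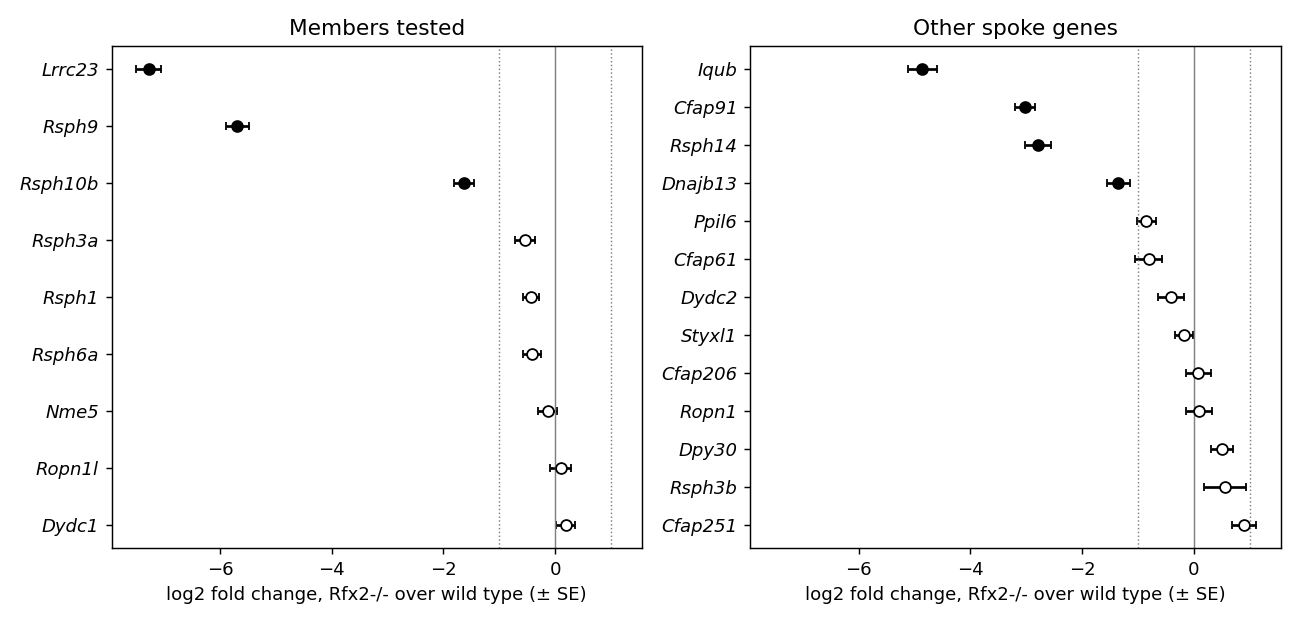
Log2 fold change (Rfx2-/- over WT, ± SE) of the 9 members tested and of the 13 other spoke genes, with filled points for genes called lower and dotted lines at a 2-fold change. In each panel a few genes lie far to the left, down to -7.28 for Lrrc23 and -4.86 for Iqub, while most lie within 2-fold of WT.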

How the data were processed

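The table deposited by the authors held raw read counts per gene, in whole numbers, from TruSeq libraries of decapsulated testes. The methods describe the mapping of single reads to GRCm38 in 2 places, once with Bowtie and once with STAR, and with different read lengths. Both discard reads with several genome positions. Reads were counted with featureCounts over merged exons of protein coding isoforms. The submitters' processing notes name STAR 2.4, featureCounts 1.4.6 and CASAVA 1.8.2. Use of strand is not given in the sources used here. Groups came from the genotype label. Replicate numbers follow deposition order and pair no animals.

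Names, positions and exon lengths came from GENCODE M21 (96.6% of IDs matched). Counts were fitted with edgeR 4.0.16 in R 4.3.3 (TMM, filterByExpr, robust quasi-likelihood F test, genotype as factor, Benjamini-Hochberg adjustment over 15613 genes). The procedure was tested on simulated counts. DESeq2 1.42.0, other scalings and filters, the test against the 2-fold limit (glmTreat), thinning of the deepest library, removal of the length trend and leaving out each library served as alternatives. The floor was 3 counts, the upper limit at 95% confidence for 0 reads, and covers counting error only. Members and lists, written from general knowledge, were chosen with earlier results of these data known. The text names every member, Rfx2, each other spoke gene that was called, and Rsph3b, Rsph14 and Ropn1. Mrps18a, Pms2, the multiciliated epithelium markers, Ppil6, Cfap61, Cfap251 and Dpy30 were added after their values were seen. Protein identity of paralogs was not computed, and shared runs of 50 bases in GENCODE transcripts were used instead.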

Additional observations from a re-analysis of the deposited data

How the results depend on the processing

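Lrrc23 and Rsph9 kept their call and direction under all 16 alternatives, and Rsph10b under 15 (adjusted p = 0.0163 in the test against the 2-fold limit, where Rfx2 was also lost, at 0.0282). The number of members called lower was thus 2 to 3 and of those called higher 0. Of 160 values of single genes, 155 kept direction and call, 2 lost the call and 3 changed sign. With total counts in place of TMM, which moved the median of all genes to 0.16, Nme5 was at 0.013. Without single libraries, Nme5 ranged from -0.291 (without Rfx2-/- replicate 2) to 0.01 (without Rfx2-/- replicate 1) and Ropn1l from -0.073 (without Rfx2-/- replicate 2) to 0.245 (without Rfx2-/- replicate 1), and neither was called. Over all genes, DESeq2 called 198 higher, against 129, and the test against the 2-fold limit called 272 lower and 29 higher, against 575 and 129. Member windows with a pair of half-sites 2 bases apart were 0 of 6 with at most 1 mismatch and 5 of 6 with at most 3, where 2.56% and 63.4% of all windows held one. No paired analysis was possible because the labels give no replicate numbers shared between genotypes. Depth limits Rsph4a, with 2 to 8 reads per library. No value of a member stood apart from the others of its genotype by Dixon's test in 22 groups.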
